A study of Homo sapiens with 17 samples.

Results

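Transcripts carried through a mock pull-down without the ac4C antibody were compared with the starting RNA of TDP43 knockdown cells. The comparison used 6 of the 17 libraries of the series, namely 3 siTDP43 libraries pulled down with a control IgG (replicates 1, 2 and 3 of siTDP43 IgG) and 3 siTDP43 libraries of poly(A) RNA that met no antibody beads (siTDP43 input). It covered all 23368 genes of the count table, of which 12746 held enough counts to be tested and 10622 did not. In 6514 genes of the table none of the 6 libraries had a count. The study mapped N4-acetylcytidine (ac4C), an acetyl mark on cytidine in RNA, by acRIP-seq, in which an antibody against ac4C retrieves acetylated RNA for sequencing. All 6 libraries came from HEK293T, an immortalised human embryonic kidney line, with the genotype label siTARDBP and a transient siRNA to TARDBP, the gene of the RNA-binding protein TDP43. In all of them poly(A) RNA was taken with oligo(dT) beads and libraries were made by Smart-seq2, which copies RNA from an oligo(dT) primer and amplifies the cDNA. The pull-down groups met protein A beads carrying a rabbit isotype antibody. Input RNA was diluted to a set concentration before library construction, whereas pull-down RNA was too scarce to quantify and entered by volume. WT libraries (3 input and 2 IgG, from cells with the genotype label WT and no control siRNA named in the labels) serve below only to show where the knockdown comparison differed. The labels do not state that replicates were separate cultures, so the p-values measure the spread between these libraries, which may be technical.

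A control IgG is not directed at ac4C, so what it retrieves is the background of the method, namely RNA that sticks to the beads, the tube or the antibody's constant region, seen after amplification of very little material. Such background need not resemble the starting RNA. TDP43 binds UG-rich RNA in the nucleus and is known for roles in splicing and RNA stability. The check of the knockdown comes first, followed by the retained and the lost classes.

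The sense strands listed for the siRNA to TDP43 are shown because all 6 libraries carry this treatment, and whether both were used in these libraries is not given in the sources used here. The first 19 bases of each (capitals) matched an exon of TARDBP on the plus strand of GRCh37, one at chr1:11073948-11073966, inside the exon at 11073773 to 11074022, and the other at chr1:11078873-11078891, inside the exon at 11078790 to 11078930. The lower-case end is an overhang.
siTDP43 sense strand, first listed: GGCUGGUAGAAGGAAUUCUtt
siTDP43 sense strand, listed next: GUCACAGCGACAUAUGAUAtt
On the CPM scale (counts per 1000000 counts of the scaled library) of a fit over all 17 libraries, TARDBP was at 98.7, 102 and 106 in the siTDP43 input libraries and at 149.7, 157 and 151 in the WT input libraries, and the groups did not overlap. In the 3 siTDP43 IgG libraries it was at 88.1, 66.0 and 58.0, against 82.4 and 90.3 in WT IgG. Within siTDP43, on the scale of the knockdown fit, TARDBP was at 86.0, 64.5 and 56.2 CPM in IgG and 81.6, 85.1 and 88.4 in input, a log2 change of -0.30 ± 0.12 (SE, edgeR quasi-likelihood test with Benjamini-Hochberg adjustment, adjusted p = 0.025) that was under the 2-fold limit for a call and reversed to 0.43 when the trend with GC content was removed.

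The siTDP43 IgG libraries held 3013989 to 3436811 counts and the input libraries 24542434 to 31030950. At the common depth of 3013989 counts, 10247 to 10368.2 genes were expected to have a count in the IgG libraries against 13886.8 to 13942.3 in input. Counts were also more concentrated in IgG, where the 100 most counted genes took 39.6% to 39.8% of each library, against 22.6% to 22.8% in input. Among the low counts, from 1 to 20, 94.2% to 95.9% were even numbers in IgG and 83.3% to 88.3% in input, and how read pairs were counted is not given in the sources used here. Across 12746 genes the IgG libraries had Spearman correlations of 0.972 to 0.975 with each other, the input libraries 0.995 to 0.996, and an IgG with an input library 0.678 to 0.693. Of 8 markers of HEK293T cells, PAX2 and LHX1 had at most 3 counts in every IgG library, and the summed level of the list was 596.5 to 635.3 CPM in IgG and 526.8 to 561.3 CPM in input with TMM scaling, an order that turned with total count scaling (500.3 to 529.6 and 651.8 to 693.8). Of 10 markers of other cell types, 6 had at most 3 counts in each IgG library (PTPRC, CD3E, LYZ, ALB, COL1A1 and PECAM1), and the list summed to 14.2 to 19.3 CPM in IgG and 8.60 to 9.78 in input (11.9 to 16.1 and 10.6 to 11.96 with total count scaling). HBB was the member that moved most, at 7.16, 9.49 and 6.89 CPM in IgG and at 0 in every input library, at least 88.6-fold higher. The methods describe an ac4C-containing beta-globin RNA mixed into the poly(A) RNA before pull-down, and its part in this count was not tested.

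A gene was called higher or lower in IgG where the edgeR quasi-likelihood test gave an adjusted p under 0.05 and the change was above 2-fold. By this rule 3145 of 12746 genes were higher in siTDP43 IgG than in input (24.7%) and 5227 were lower (41.0%), with 4374 called neither way. Of the higher genes, 3056 had CPM values that did not overlap between the groups, and of the lower genes 5201. Among the lower genes, 2276 had at most 3 counts in every IgG library, and their loss is therefore known only as a bound. The median log2 change over all tested genes was -0.58, with the middle 50% of genes between -2.80 and 0.996. Scaling by total count in place of TMM (trimmed mean of M-values) moved this median to -1.13 and gave 2365 higher and 6420 lower genes, so 26.9% of calls were higher in place of 37.6%. Changes of a class are therefore read against the median of all genes. The beta-globin RNA was not used for scaling, so the counts show only relative amounts.

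**Figure D1:**
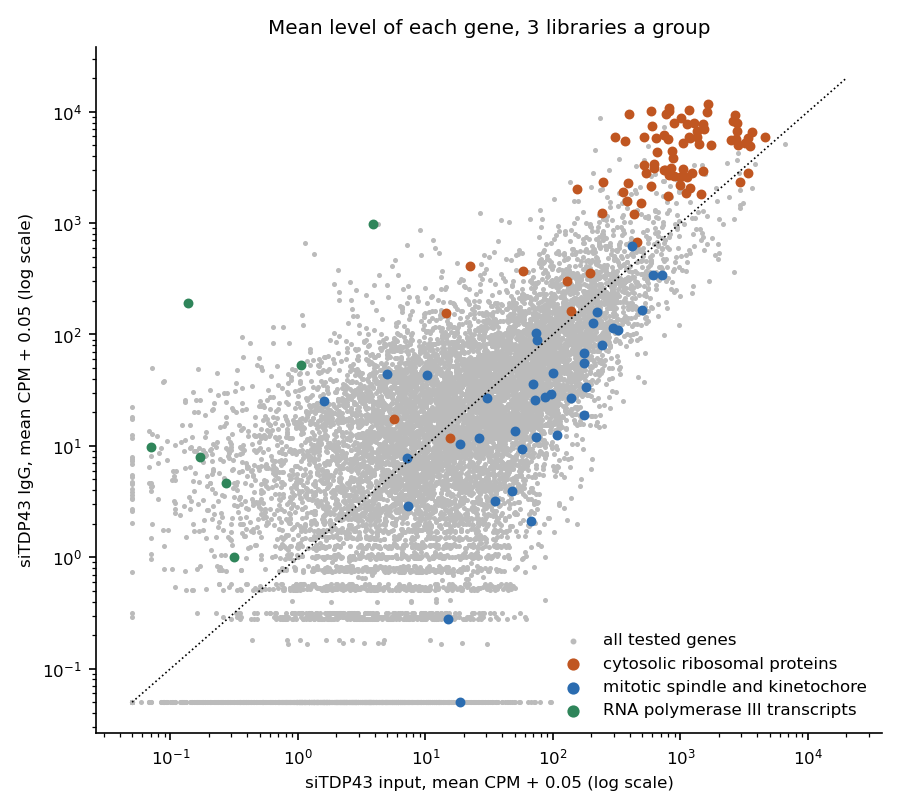
Mean level of each tested gene in siTDP43 input (x axis, CPM, log scale) against siTDP43 IgG (y axis, CPM, log scale); each point is 1 gene, the mean of 3 libraries a group, and the dotted line marks equal levels. Cytosolic ribosomal protein genes lie mostly above the line, mitotic genes mostly below it, and most of the tested RNA polymerase III transcripts at the left, far above the line.

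Messages of cytosolic ribosomal proteins, which build the ribosome, took a larger share of the control pull-down than of the starting RNA. They held 31.7%, 31.5% and 31.5% of counts in the IgG libraries and 11.8%, 11.7% and 11.97% in input, so the groups did not overlap (exact permutation test, two-sided, p = 0.1, the smallest that 3 against 3 libraries can give). Of 82 tested members, 66 were higher (80.5%, against 24.7% of all genes) and none lower. The median log2 change was 2.09, which was 2.67 above that of all genes. RPS2, a small-subunit protein, was at 9952, 9647 and 9282 CPM in IgG and 413, 389 and 390.0 in input, a log2 change of 4.60 ± 0.06 (edgeR, adjusted p = 2.4e-24). RPS29 was at 10037, 10414 and 10102 CPM against 553, 557 and 664, a log2 change of 4.11. For both genes the lowest IgG library was far above the highest input library. Members of the small subunit (29 of 31 higher, median 2.20) and of the large subunit (35 of 49, median 2.01) shared the direction. The 49 include the genes of the acidic stalk, of which 3 of 3 were higher. The 9 ribosomal protein genes RPL13, RPL39, RPL36, RPL38, RPS29, RPS19, RPS2, RPL37A and RPL8 were among the 10 genes with the most counts in IgG (CPM, not per length), from a mean of 9424 CPM for RPL8 to 11617 for RPL13. The 10th was ATP5I.

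Not every ribosomal protein message was called higher. RPL17 (log2 change -0.39), RPL10 (-0.31) and RPL15 (-0.28) had the lowest values, and none of them was called. RPL3 and RPS3, both abundant in input at means of 4566 and 3539.8 CPM, changed by 0.37 and 0.49 on the log2 scale and were not called either. RPLP2 (4.26), RPL39L (4.20) and RPS21 (3.91) were at the other end. With the trend of the change with exon length removed, 35 of the 82 members were higher, 3 were lower and the median was 0.61, which was still above that of all genes.

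Nuclear genes of oxidative phosphorylation, the chain of complexes that makes ATP in mitochondria, followed with a median of 1.01. Of 83 tested members, 42 were higher (50.6%, against 24.7% of all genes) and 11 lower (13.3%, against 41.0%). They took 6.41%, 6.41% and 6.42% of counts in IgG and 3.42%, 3.43% and 3.61% in input. The complexes were not alike. Cytochrome c oxidase subunits (COX, complex IV) had 9 of 12 higher and none lower, ATP synthase subunits (ATP5) 10 of 19 higher and 2 lower, and NADH dehydrogenase subunits (NDUF, complex I) 18 of 38 higher and 3 lower. All 4 subunits of succinate dehydrogenase (SDH, complex II) were lower, with a median of -1.90. ATP5I, a small membrane subunit of ATP synthase, was at 8835, 8619 and 9001 CPM in IgG and 231, 217 and 258 in input, a 37.4-fold difference (5.23 ± 0.07, edgeR, adjusted p = 2.4e-24). SDHD, the membrane anchor of complex II, stood at 15.0, 15.8 and 14.5 CPM in IgG and 237, 257 and 255 in input (-4.05 ± 0.13, edgeR, adjusted p = 9.7e-18). The 3 IgG libraries were above all input libraries for ATP5I and below all of them for SDHD. Removing the exon length trend left 18 of the 83 members higher and 20 lower.

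Mitochondrial ribosomal proteins, which translate the few messages of the mitochondrial genome, split into 22 higher (28.9%, near the 24.7% of all genes) and 16 lower of 76, with a median of 0.35. MRPL23 was at 723, 739 and 654 CPM in IgG and 12.4, 11.3 and 10.6 in input (5.94), whereas MRPL39 was at 8.60, 6.33 and 7.58 against 196, 199 and 212 (-4.74). Both belong to the large subunit, and they moved in opposite directions with no overlap between groups in either. Removing the exon length trend left 5 higher and 22 lower, so the balance of this class depended on that correction. Translation factors had 18 higher (30.0%, against 24.7% of all genes) and 14 lower (23.3%, against 41.0%) of 60. Their median of 0.04 was 0.61 above that of all genes, or 0.32 above it with genes at the floor set at their bounds. Proteasome subunits had 7 higher and 5 lower of 35 and a median of 0.05, which was 0.63 above it. EIF3B, a subunit of the initiation factor eIF3, was at 549, 462 and 468 CPM in IgG and 32.1, 31.3 and 31.6 in input (3.96). The elongation factor message EEF1A1 was at 5345, 5326 and 4859 CPM in IgG and 6695, 6875 and 6186 in input (-0.35, not called, and 0.28 with the GC trend removed). The kinase of elongation factor 2, EEF2K, had no count in any IgG library against 8.35, 9.56 and 8.64 CPM in input, at least 8.06-fold lower. This fold is against a floor of 3 counts per library, as for all bounds given below.

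**Figure D2:**
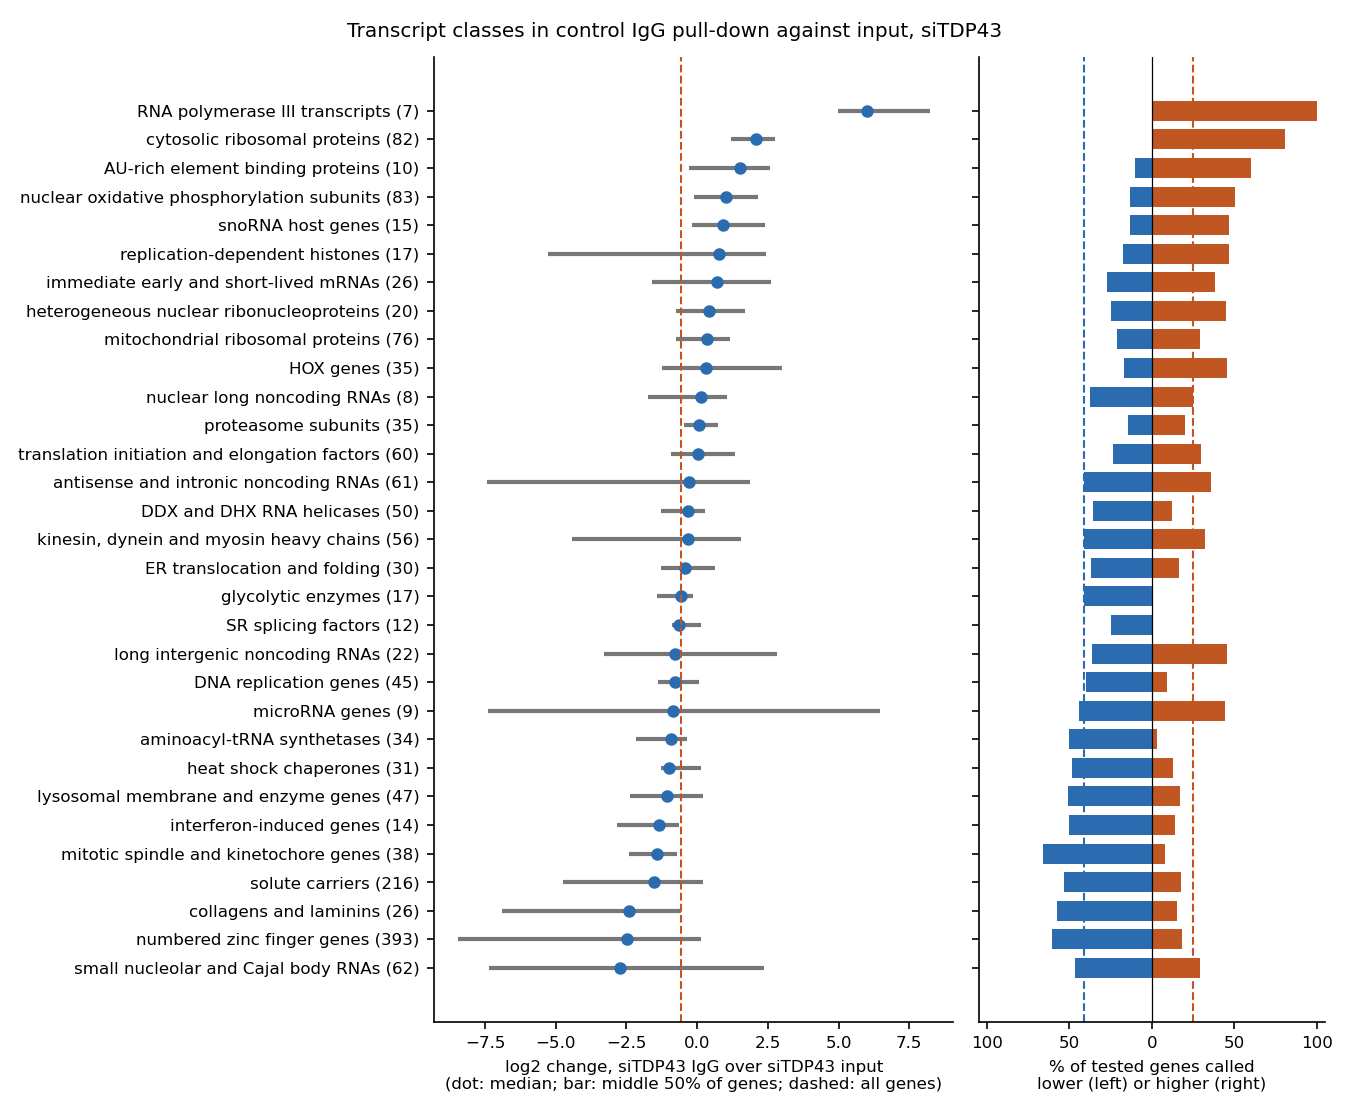
Left, median log2 change of siTDP43 IgG over siTDP43 input for each gene class (points) with the middle 50% of its genes (bars), the dashed line being the median of all tested genes (-0.58); right, percent of tested members called higher and called lower. Cytosolic ribosomal proteins lie to the right of the line and numbered zinc finger genes to the left. Small nucleolar and Cajal body RNAs and collagens and laminins also plot to the left, where 37 of 62 and 13 of 26 members had at most 3 counts in every IgG library and have only a bound (medians of 0 and -0.55 with members at their bounds, against -0.28 for all genes).

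Several short RNAs made by RNA polymerase III, the enzyme of tRNA, 5S rRNA and other small noncoding RNAs, were higher in the control pull-down. Their transcripts end in U-rich stretches rather than in the poly(A) tail added to messages. Among them are the snaR RNAs, primate-specific small noncoding RNAs that bind the double-stranded RNA-binding protein NF90. The 4 snaR sequences below, read from GRCh37, are shown because their RNAs were far higher in IgG and because each holds an unbroken run of A near its 3′ end (capitals). They were 78.3% to 92.5% identical to each other over aligned pairs.
SNAR-G1 (chr19:49540277-49540404, plus strand): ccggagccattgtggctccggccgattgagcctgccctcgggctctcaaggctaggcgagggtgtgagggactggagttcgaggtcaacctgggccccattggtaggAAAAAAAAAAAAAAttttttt
SNAR-H (chr2:78182033-78182152, minus strand): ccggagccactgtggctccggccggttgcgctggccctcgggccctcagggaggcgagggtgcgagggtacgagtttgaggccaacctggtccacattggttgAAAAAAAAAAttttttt
SNAR-E (chr19:47333842-47333961, minus strand): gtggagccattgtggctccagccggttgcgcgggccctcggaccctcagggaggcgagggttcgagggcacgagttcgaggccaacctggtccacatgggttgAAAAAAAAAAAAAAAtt
SNAR-C3 (chr19:48453553-48453671, plus strand): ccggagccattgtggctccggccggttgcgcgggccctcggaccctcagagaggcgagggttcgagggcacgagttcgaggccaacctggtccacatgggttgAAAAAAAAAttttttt
SNAR-E was at 868, 1006 and 1044 CPM in the IgG libraries and 2.71, 3.82 and 5.0 in input, a log2 change of 7.99 ± 0.19 (edgeR, adjusted p = 4.3e-20). SNAR-G1 was at 644, 645 and 692 CPM in IgG and 0.574, 1.05 and 1.66 in input (9.25), and SNAR-H was at 98.1, 91.0 and 93.8 against 0.104, 0.0659 and 0.769 (8.20). In each case the 3 IgG libraries stood together and far above input, where the snaR RNAs were barely counted. SNAR-C3 was higher as well (7.56). SNAR-C4 and SNAR-I had no count in input and were at least 51.0-fold and 40.5-fold higher in IgG, against a floor of 3 counts per library. SNAR-D had 4 counts over the input libraries, a ratio of IgG to input of 948 (95% counting interval 370 to 3479). Because these loci are close copies of each other and of further snaR genes, reads could be split between them and the single values are uncertain.

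Of the 14 members of the polymerase III list that the table holds, 7 passed the filter on low counts. Most of these had only a few counts in each input library and so passed through the pull-down libraries, and their count and median are no measure of the list. BCYRN1, the dendritic RNA BC200, was at 189, 210.1 and 175 CPM in IgG and 0.0522, 0 and 0.207 in input (10.97), but the table places it in 4 pieces on chromosome X, whereas RefSeq puts it on chromosome 2, so the reads behind this value may not be BC200. RMRP, the RNA of RNase MRP, had 2 counts over the input libraries and 78 over IgG, a ratio of 486 (95% counting interval 135 to 4017). The vault RNAs VTRNA1-1, VTRNA1-2 and VTRNA1-3 changed by 5.99, 4.29 and 5.69. RPPH1, the RNA of RNase P, changed by 1.81 (edgeR, adjusted p = 0.024) with 2, 2 and 4 counts in IgG and 14, 6 and 8 in input, and this call was lost in the 17-library fit (adjusted p = 0.087). Among the 81 tested genes with exons of up to 300 bases, 8 had a run of 9 or more A, and of these 7 were called higher and none lower. Of the 68 with no run above 5 A, 26 were higher and 29 lower. Runs of this length were found in 16 of the 1672 genes of that size in the whole table (0.957%). The 8 tested genes with such a run include the snaR genes shown above, which are close copies of each other. Some of these had few counts in input and passed the filter through the pull-down libraries, so the number called higher is no measure of the run. In genes with exons above 300 bases the higher share did not follow the length of the run in 1 direction, being 31.9% without a run above 5 A, 22.4% with 9 to 11 and 29.1% with 12 or more. A run is a description of the sequence, and its part in the counts was not tested.

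Other noncoding RNAs were split, and over all tested genes 24.7% were higher and 41.0% lower. Of 62 small nucleolar and Cajal body RNAs, which guide modification of ribosomal and spliceosomal RNA, 18 were higher (29.0%) and 29 lower (46.8%). Of these 62, 37 had at most 3 counts in every IgG library. By kind, C/D box RNAs (SNORD) had 4 higher and 19 lower of 31, H/ACA box RNAs (SNORA) 10 and 10 of 25, and Cajal body RNAs (SCARNA) 4 and none of 6. The tested SCARNA genes had a median of 0.12 CPM in input. Some of them passed the filter on low counts only through pull-down libraries, so their number called higher is no measure of the kind. SCARNA22 was at 114, 132 and 122 CPM in IgG and 0.966, 1.02 and 1.12 in input (6.87), and SNORD80 had no count in IgG against 17.7, 17.6 and 21.0 CPM in input, at least 17.1-fold lower. The spliced snoRNA host genes had 7 higher and 2 lower of 15 and a median of 0.90, led by SNHG8 at 1079.5, 1101 and 1100.3 CPM against 75.2, 81.1 and 89.6 (3.74). With the exon length trend removed, 4 host genes were higher and 5 lower. Their median was then -0.009, which was still above that of all genes. MALAT1, a nuclear-retained long noncoding RNA of nuclear speckles, was at 42.3, 64.9 and 52.4 CPM against 21.0, 18.9 and 19.3 (1.42), and it lost its call, at 0.87, under total count scaling. Long noncoding RNAs by RefSeq biotype had 111 higher (26.7%) and 206 lower (49.5%) of 416, and protein-coding genes 2913 (24.5%) and 4838 (40.6%) of 11903. Intergenic long noncoding RNAs had 10 higher (45.5%) and 8 lower (36.4%) of 22, and nuclear ones 2 (25.0%) and 3 (37.5%) of 8. Of 1240 microRNA genes in the table only 9 were tested, with 4 higher and 4 lower. Antisense and intronic RNAs had 22 higher (36.1%) and 25 lower (41.0%, as in all genes) of 61. Use of strand in the counting is not given, so an antisense gene and its partner cannot be told apart.

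Genes of cell division were mostly lower in the control pull-down. Of 38 mitotic spindle and kinetochore genes 25 were lower (65.8%, against 41.0% of all genes) and 3 higher, with a median of -1.42, and the class took 0.236% to 0.244% of counts in IgG against 0.671% to 0.686% in input. PLK1, the mitotic kinase, changed by -3.22 (mean 18.8 CPM in IgG and 177 in input), the kinetochore proteins ZW10 and NUF2 by -4.93 and -3.61, the spindle motor KIF11 by -2.61 and CCNB1, the cyclin of mitotic entry, by -1.06. CENPI, a centromere protein, had no count in IgG against 17.7, 20.2 and 17.6 CPM in input, at least 16.8-fold lower. The exceptions were SPC24 (2.07), CENPA (3.15) and INCENP (4.02), which were higher. CENPA, the histone of centromeres, was at 49.4, 51.4 and 31.7 CPM in IgG and 4.38, 5.27 and 5.21 in input. The kinases AURKA (-0.69) and AURKB (-0.49) and the survivin gene BIRC5 (0.57) were not called. With the GC trend removed, 19 members were lower, 4 higher and the median was -0.97. Genes of DNA replication had 18 lower of 45 (40.0%, near that of all genes) and 4 higher, with a median of -0.78. CDT1, which licenses origins, was at 116, 114 and 93.4 CPM in IgG and 12.4, 9.59 and 9.44 in input (3.36), and only 1 of the 7 MCM helicase genes was called, as lower.

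Aminoacyl-tRNA synthetases, which charge tRNAs with amino acids, had few members higher in IgG, unlike the ribosomal proteins. Of 34 members 17 were lower (50%, against 41.0% of all genes) and 1 was higher (2.9%, against 24.7%). The median was -0.93, a difference of -0.35 from that of all genes. With no low-count filter it was -0.96, above the -1.31 of all genes. MARS, the methionine enzyme, was at 31.5, 34.8 and 44.8 CPM in IgG and 531, 515 and 502 in input (-3.79 ± 0.10, edgeR, adjusted p = 2.0e-19), although its exons overlap those of another gene, DDIT3. The mitochondrial enzymes LARS2 (-3.78), AARS2 (-3.55), MARS2 (-3.47) and NARS2 (-3.15) and the cytosolic AARS and IARS (both -2.91) and HARS (-2.81) were lower. CARS2 (2.89) was the member called higher. The class took 0.320% to 0.326% of counts in IgG and 0.910% to 0.935% in input.

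Glycolytic enzymes had 7 lower of 17 (41.2%, as in all genes) and none higher. PFKM, the muscle form of phosphofructokinase, was at 11.5, 11.1 and 8.27 CPM in IgG and 142, 138 and 139 in input (-3.77). LDHA, which makes lactate, changed by -2.87 and its partner LDHB by -0.02, the latter not called. GAPDH stood at 3466, 3486 and 3300.3 CPM in IgG and 3911, 3786 and 3777 in input (-0.16, not called), and TPI1 (-0.56), ENO1 (-0.48) and ALDOA (-0.87) were not called. The class median of -0.56 was close to that of all genes and lay on either side of it depending on the alternative. Heat shock chaperones had 15 lower of 31 (48.4%, against 41.0% of all genes) and 4 higher (12.9%, against 24.7%), with DNAJC7 at -2.44 and HSPA2 at 3.27.

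Numbered zinc finger genes, mostly KRAB-type transcription factors that repress retroelements, formed the largest class tested. Of 393 members 237 were lower (60.3%, against 41.0% of all genes) and 72 higher (18.3%, against 24.7%). The median was -2.48, and 172 members had at most 3 counts in every IgG library. With those members set at their bounds, the median was -1.16, against -0.28 for all genes treated in the same way. ZNF302 had no count in IgG against 17.5, 20.9 and 18.5 CPM in input, at least 17.3-fold lower, while ZNF503, a developmental regulator, was at 248, 235 and 267 CPM in IgG and 2.04, 2.80 and 3.49 in input (6.50). The zinc finger share of counts was 0.480% to 0.483% in IgG and 0.548% to 0.558% in input, a smaller difference than that of the median, with no overlap.

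Solute carriers had 115 lower of 216 (53.2%, against 41.0% of all genes) and 38 higher (17.6%, against 24.7%), with a median of -1.52 (-0.73 with members at their bounds). Their mitochondrial family SLC25 had 18 lower (47.4%) and 8 higher (21.1%) of 38. SLC25A46, an outer membrane protein of mitochondria, had no count in IgG and 65.1, 73.8 and 72.2 CPM in input, at least 64.1-fold lower, while the pyrimidine carrier SLC25A33 was at 35.8, 53.0 and 46.2 against 5.12, 6.07 and 5.62 (3.0). Of 47 lysosomal genes 24 were lower (51.1%) and 8 higher. CTSA, a lysosomal carboxypeptidase, had no count in IgG against 37.6, 40.4 and 42.3 CPM in input, at least 36.5-fold lower, and NAGLU, a heparan sulfate hydrolase, was at 46.6, 52.2 and 59.3 against 4.98, 3.13 and 3.70 (3.73). Of 30 genes of translocation and folding in the endoplasmic reticulum 11 were lower (36.7%, under the 41.0% of all genes) and 5 higher. The folding enzymes PDIA6 (-2.77), PDIA3 (-1.87) and PDIA4 (-1.31) and the chaperones HSPA5 (-1.44) and CANX (-1.37) were lower. The small translocon subunits SEC61B (1.10) and SEC61G (2.25) were higher, and the channel subunit SEC61A1 (-2.09) was lower. Collagens and laminins, the long messages of extracellular matrix, had 15 lower of 26 (57.7%, against 41.0% of all genes) and 4 higher (15.4%, against 24.7%). Of the 26, 13 had at most 3 counts in every IgG library, and the median of -2.41 was -0.55 with those members at their bounds. LAMB2 had no count in IgG against 8.04, 7.42 and 5.83 CPM in input, at least 6.46-fold lower, and LAMA4 was at 51.2, 40.0 and 56.2 against 9.81, 8.24 and 10 (2.39).

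Messages of RNA-binding proteins that act on AU-rich elements in 3′ ends, and so set message lifetime, had 6 higher of 10 (60%) and 1 lower, with a median of 1.505. KHSRP was at 126, 133 and 137 CPM in IgG and 11.4, 8.93 and 11.4 in input (3.63), HNRNPD (AUF1) changed by 2.7, ELAVL1 (HuR) by 2.22 and ZFP36L1 by 1.94. TIA1 (-0.70) and PUM2 (-0.65) were not called, and ZFP36 was at 0 in IgG from a mean of 3.29 CPM in input. Heterogeneous nuclear ribonucleoproteins had 9 higher of 20 (45.0%, against 24.7% of all genes) and 5 lower (25.0%, against 41.0%). Yet their summed share of counts was 0.457% in each IgG library and 0.975% to 1.001% in input, so the median member and the sum pointed in opposite ways. HNRNPAB was at 349.6, 369 and 359.5 CPM against 26.9, 27.6 and 30.9 (3.66). DDX and DHX helicases had 6 higher and 18 lower of 50, close to the 41.0% of all genes. SR splicing factors had 3 lower and none higher of 12, SRSF1 being at 145, 169 and 173 CPM in IgG and 541, 546 and 568 in input (-1.76, and not called, at -0.97, with the GC trend removed).

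Short-lived regulator messages moved both ways. Of 26 immediate early genes 10 were higher (38.5%, against 24.7% of all genes) and 7 lower (26.9%, against 41.0%). JUND, a subunit of the AP-1 factor, was at 70.2, 60.9 and 78.6 CPM in IgG and 0.940, 1.19 and 1.42 in input (5.89), and IER5 (3.8), BTG1 (3.65) and FOS (2.44) were also higher. MYC (-2.36), ID3 (-4.72), BTG2 (-3.25) and DUSP1 (-2.56) were lower, JUN (-0.30) and ATF3 (0.04) were not called, and PPP1R15A, a stress-induced phosphatase subunit, had no count in IgG against 38.5, 35.5 and 34.3 CPM, at least 32.9-fold lower. Interferon-induced genes, tested in 14 of 30 members, had 2 higher (14.3%, against 24.7% of all genes) and 7 lower (50%, against 41.0%). HOX genes, the transcription factors of body patterning, had 16 higher of 35 (45.7%, against 24.7% of all genes) and 6 lower (17.1%, against 41.0%). The HOXB cluster had 6 higher and 1 lower of 9 and the HOXC cluster 4 higher and none lower of 8, whereas HOXA had 2 higher and 3 lower of 10. HOXC13 was at 102, 76.0 and 91.7 CPM against 1.72, 2.18 and 1.3 (5.70), and HOXA9 had no count in IgG against 11.6, 8.27 and 8.99 CPM in input, at least 8.76-fold lower. Replication-dependent histones, whose messages end in a stem-loop in place of a poly(A) tail, were tested in 17 of 73 members. Of these, 8 were higher (47.1%, against 24.7% of all genes) and 3 lower (17.6%, against 41.0%), and 7 had at most 3 counts in every IgG library. The tested histone genes had a median of 0.66 CPM in input. Some of them passed the filter on low counts only through pull-down libraries, so the share higher is no measure of the class. HIST1H4C was at 312, 267 and 265 CPM against 26.0, 25.2 and 29.7 (3.38). With the exon length trend removed, 3 histone genes were higher and 6 lower, with a median of -0.89.

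LAMP1, a major glycoprotein of the lysosomal membrane, and ZFP36L2, which speeds decay of AU-rich messages, belong to the targets that the study measured by qPCR. LAMP1 was at 30.1, 38.0 and 30.0 CPM in the 3 IgG libraries and 1.51, 0.857 and 0.651 in the 3 input libraries, a 31.6-fold difference (log2 change 4.98 ± 0.27, edgeR, adjusted p = 1.6e-13). ZFP36L2 was at 28.7, 30.9 and 31.7 CPM in IgG and 2.43, 2.90 and 2.72 in input, an 11.3-fold difference (3.50 ± 0.22, adjusted p = 2.0e-12). For both genes every IgG library was above every input library, and the input level was a few CPM or less. LAMP1 was too low in input to pass the filter on low counts without pull-down libraries. LAMP1 thus stood apart from the lysosomal class, in which most called genes were lower.

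Of the other targets, RRBP1, a ribosome receptor of the endoplasmic reticulum, was at 35.8, 42.7 and 35.5 CPM in IgG and 4.44, 3.56 and 2.49 in input (3.43 ± 0.26). RBBP6, a ubiquitin ligase that binds the retinoblastoma protein, was at 46.2, 38.8 and 30.3 against 10.2, 10.6 and 9.08 (1.95 ± 0.17). Both were called higher, and the groups did not overlap. UPF3B, a factor of nonsense-mediated decay, was at 41.9, 39.6 and 45.2 CPM in IgG and 30.7, 29.0 and 31.3 in input (0.48 ± 0.12), under the 2-fold limit and at -0.07 under total count scaling, although the groups did not overlap.

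**Figure D3:**
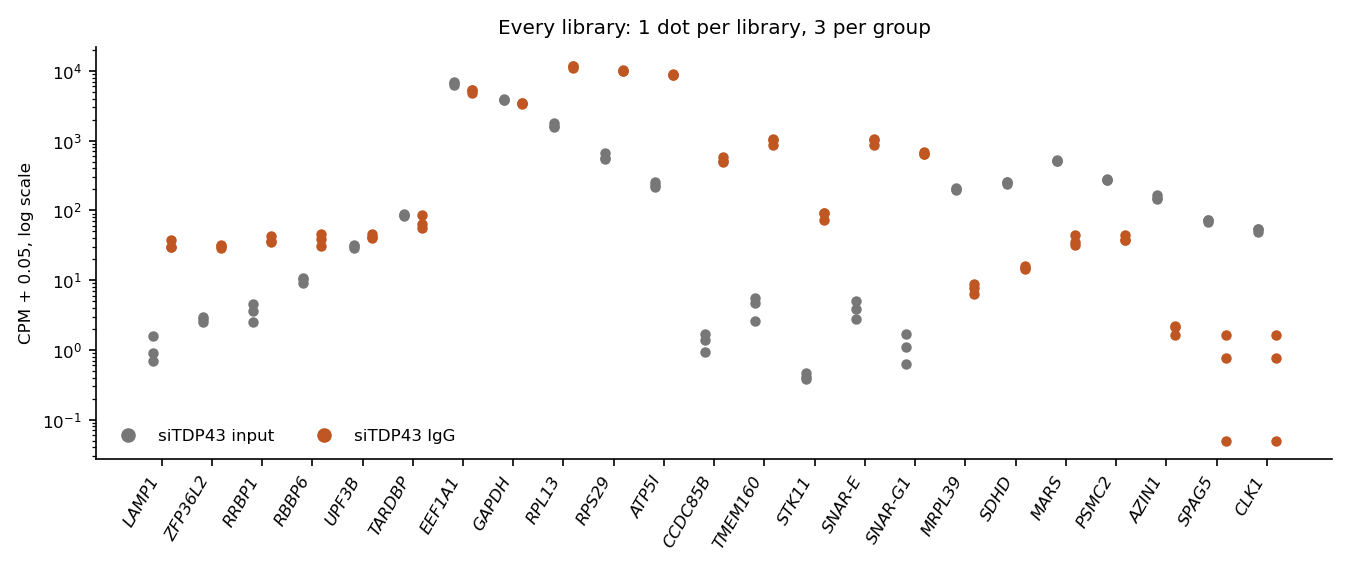
Level of selected genes in each siTDP43 library (CPM plus 0.05, log scale), with 1 point a library for 3 IgG and 3 input libraries. LAMP1, ZFP36L2, RPS29, ATP5I and the snaR RNAs are higher in all IgG libraries than in any input library, MARS, SDHD and CLK1 lower, and GAPDH and EEF1A1 differ by less than 2-fold.

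Beyond the classes, the largest rises among well-counted genes without exon overlap included 4 protein-coding genes at a few CPM or less in input. CCDC85B was at 506, 579.6 and 495 CPM in IgG and 0.887, 1.32 and 1.63 in input (8.70), and TMEM160 at 1049, 1019.5 and 878 against 4.59, 2.57 and 5.50 (7.84). STK11, the LKB1 kinase, was at 90.3, 72.0 and 90.3 against 0.418, 0.330 and 0.355 (7.80), and MESP1, a mesoderm transcription factor, at 111, 111 and 127 against 0.418, 0.396 and 0.947 (7.61). STK11 and MESP1 were too low in input to pass the filter there. They were tested only because of pull-down libraries where they were high, and a ranking by rise favours such genes. The largest falls that were not bounds left a few counts in 1 or more IgG libraries. SPAG5, a spindle protein, was at 0.716, 1.58 and 0 CPM in IgG and 71.5, 68.6 and 72.3 in input (-6.58), CLK1, a kinase of SR proteins, at 0.716, 1.58 and 0 against 53.3, 49.1 and 54.1 (-6.14), and AZIN1, the antizyme inhibitor of polyamine synthesis, at 2.15, 1.58 and 2.07 against 145, 164 and 153 (-6.30). NXT2 (-6.53), NUDT10 (-6.48), UQCC (-6.37), NARG2 (-6.30) and FAM114A2 (-6.19) were the others.

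Some messages well represented in input were missing from the control pull-down. ZDHHC13, a palmitoyltransferase, had no count in IgG against 64.6, 65.1 and 71.0 CPM in input, at least 60.9-fold lower. SORD, sorbitol dehydrogenase, had 3 counts over the 3 IgG libraries and 87.5, 89.7 and 83.6 CPM in input, a ratio of input to IgG of 238 (95% counting interval 81.4 to 1154), and the GTPase RALB had 2 counts, a ratio of 251 (69.5 to 2075). These intervals cover counting error only. Among the 7027 genes with at least 10 CPM in input (TMM scaling), 233 had no count in any IgG library, 159 had none in 2 of them and 241 had none in 1. Had the composition been the same, at least 30.1 counts would be expected for each in every IgG library, taking 10 CPM of the total count. At 50 CPM or more, 10 of 3218 genes were absent from all 3, and at 100 CPM or more none of 1812 was, while 3 were absent from 1 library. In bulk RNA, fewer copies captured and a lower yield from each copy cannot be told apart.

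Sequence properties of the genes moved with the change. In 10 groups of equal size by GC content of the exons, the median log2 change went from -1.38 in the lowest (30.9% to 39.1% GC, 11.6% of genes higher and 54.3% lower) to 1.44 in the highest (62.0% to 76.8% GC, 53.9% higher and 17.1% lower). By exon length, the shortest 10th of genes (43 to 1257 bases) had a median of 0.75, with 44.1% higher and 21.6% lower, and the other groups lay between -0.96 and -0.20. Single-exon genes had a median of 0.12 and genes of 10 to 19 exons -0.81. Across 12746 genes, which are not independent replicates, Spearman correlations of the log2 change were 0.250 with GC, -0.106 with length and -0.086 with exon number. In a split by both length and GC, the median was 0.63 in short GC-rich genes and -1.48 in GC-poor genes of middle length, and within each length group it went up with GC. The level in input had no monotonic relation with the change (0.003), although the percent called higher went from 44.5% in the lowest 10th of input levels to 11.1% in the 9th. Genes in that lowest 10th were at 0 to 1.11 CPM in input. Some of them passed the filter on low counts only through pull-down libraries where they were high, so the share higher there is no measure of a trend with input level. The groups also differ in the RNA amount that entered amplification, and its part in these trends was not tested.

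**Figure D4:**
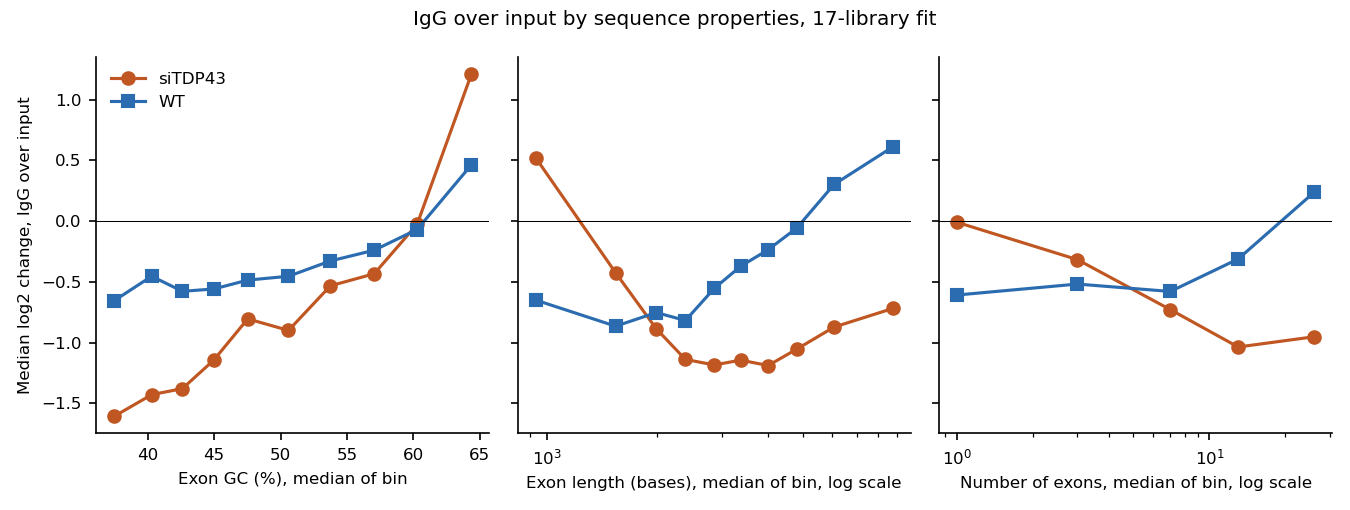
Median log2 change of IgG over input in the 17-library fit against GC content, exon length and number of exons of the genes (x axes, binned), for siTDP43 and for WT. Both genotypes rise with GC (from -1.61 to 1.21 in siTDP43 and from -0.65 to 0.46 in WT), while with length siTDP43 goes from 0.52 to -0.72 and WT from -0.65 to 0.61.

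The WT IgG and input libraries show which of these features were shared with cells outside the knockdown. In a fit over all 17 libraries with 15165 genes tested, WT IgG had 3534 genes higher (23.3%) and 5508 lower (36.3%) than WT input, and in that fit siTDP43 IgG had 2897 higher and 6259 lower. Of the genes lower in siTDP43, 3160 were also lower in WT (50.5% of the siTDP43 list and 57.4% of the WT list), and of the higher genes 1328 were shared (45.8% and 37.6%). A further 824 genes were lower in siTDP43 and higher in WT, and 568 the reverse. The change itself differed between the genotypes at an adjusted p under 0.05 in many genes, being higher in siTDP43 for 4098 (27.0%) and lower for 5674 (37.4%). Genotype, siRNA transfection and the preparation of the libraries cannot be told apart in this contrast, and the WT IgG libraries were deeper, at 9022250 to 9466855 counts.

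Ribosomal protein messages differed between the genotypes. The class had a median of -0.16 in WT and 1.86 in siTDP43 in this fit, and the change was higher in siTDP43 for 77 of its genes and lower for 3. Their share of counts was 19.2% to 19.8% in WT input and 18.4% to 19.01% in WT IgG, against the rise from 11.7% to 11.97% in input to 31.5% to 31.7% in IgG of siTDP43. Input itself thus differed between the genotypes. Oxidative phosphorylation genes had medians of -0.66 in WT and 0.79 in siTDP43, with the change higher for 63 genes and lower for 8, and snoRNA host genes -0.71 in WT, with the change higher for 12 and lower for none. Among polymerase III transcripts, SNAR-E was at 4.88 in WT and VTRNA1-3 at 1.35, while VTRNA1-1 had no count in either WT IgG library and was not called there. Of the 7 tested members of the list, the change was higher in siTDP43 for 4 and lower for 1. The lower one was RPPH1, at 6.12 in WT and 1.59 in siTDP43. VTRNA1-2 (5.21 in WT and 4.06 in siTDP43) and RMRP (7.21 and 8.36) did not differ at an adjusted p under 0.05. In the other direction, collagens and laminins had medians of 0.82 in WT and -2.63 in siTDP43, the latter resting on members at or under 3 counts in IgG as given above, with the change lower for 15 and higher for 4, and kinesin, dynein and myosin heavy chains 0.77 and -0.55, lower for 32 and higher for 12 (within siTDP43, 18 of 56 were higher and 23 lower). Over the shortest 10th of genes the change was higher in siTDP43 for 766 and lower for 181, and over the longest 10th for 238 and 720. Zinc finger genes (-1.10 in WT) and mitotic genes (-0.98 in WT) were below 0 in both genotypes. The median of all genes in this fit was also below 0, at -0.44 in WT and -1.12 in siTDP43. Relative to it, zinc finger genes were at -0.65 in WT and -1.58 in siTDP43, and mitotic genes at -0.54 and -0.53. Kinesin, dynein and myosin heavy chains were above it in both genotypes, by 1.21 in WT and 0.57 in siTDP43.

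The targets measured by qPCR also differed. LAMP1 had a log2 change of 1.97 in WT and 4.75 in siTDP43 in this fit, a difference of 2.78 ± 0.27 (edgeR, adjusted p = 1.1e-11). ZFP36L2 had 0.03 in WT and 3.28 in siTDP43, a difference of 3.24 ± 0.29 (adjusted p = 1.5e-12). UPF3B went the other way, with 2.95 in WT, 0.25 in siTDP43 and a difference of -2.7 ± 0.12 (adjusted p = 5.2e-21). RRBP1 (2.43) and RBBP6 (1.68) were higher in IgG in WT too. The change of RRBP1 was 0.77 higher in siTDP43 (adjusted p = 0.001), and that of RBBP6 differed by 0.04 ± 0.17 (adjusted p = 0.95), a difference that did not pass the test and turned sign under total count scaling (-0.28).

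**Figure D5:**
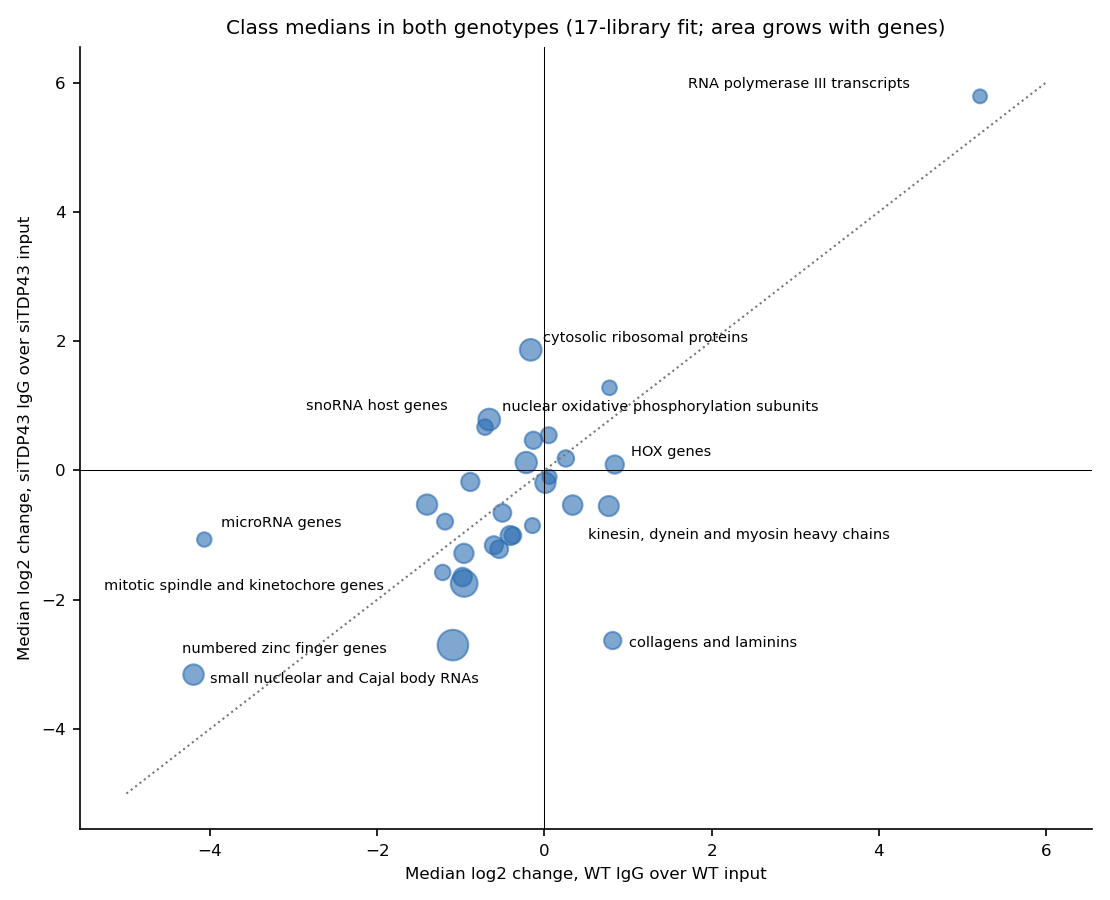
Median log2 change of IgG over input for each gene class in WT (x axis) and in siTDP43 (y axis), both from the 17-library fit, with point area growing with the number of genes and the dotted line marking equality. Cytosolic ribosomal proteins (-0.16 and 1.86) and oxidative phosphorylation subunits (-0.66 and 0.79) lie above the line, and collagens and laminins (0.82 and -2.63) and numbered zinc finger genes (-1.10 and -2.70) below it, the siTDP43 values of the last pair including members known only as bounds.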

How the data were processed

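acRIP-seq libraries of HEK293T poly(A) RNA were grouped by the titles and genotype labels. Per the methods and the submitters' processing notes, the authors trimmed reads (Trim Galore 0.6.7), aligned them (STAR 2.7.10a) and counted them per gene (featureCounts 2.0.2). The labels' notes list a mouse build, while the methods name hg19 and the positions in the table match GRCh37. The deposited table holds raw whole-number counts per gene with no normalization, and the annotation release and the use of strand and of read pairs are not given in the sources used here. Even counts were frequent.

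Counts of the 9 siTDP43 libraries (input, ac4C IP and IgG) were fitted together with edgeR 4.0.16 (R 4.3.3) after filterByExpr with a minimum count of 10 and TMM scaling, and IgG was tested against input with the quasi-likelihood F test and Benjamini-Hochberg adjustment over all 12746 genes. The IP libraries also entered the filter, the scaling and the estimate of the spread. Genes with an adjusted p under 0.05 and a change above 2-fold were called. The difference of the change between genotypes was an interaction term over all 17 libraries, called at an adjusted p under 0.05. CPM values use TMM-scaled library sizes of the fit named, and log2 changes are given with their SE. Groups at or under 3 counts in every library were treated as bounds. The share of a class was compared by an exact permutation test over libraries. Scripts were tested on simulated counts. IgG libraries held 3013989 to 3436811 counts, so that 3 counts were 1.03 to 1.19 CPM, against 0.078 to 0.099 CPM in input, and intervals cover counting error only.

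Genes were named by a rule: TARDBP and the qPCR panel, the 8 largest rises and 8 largest falls among called genes with a mean of at least 100 counts, no overlap between groups and no exon overlap with another gene, the 4 largest bounds, the 10 highest means in IgG, the called extremes of each class, and the 5 largest differences between genotypes each way. Other members of the 32 classes were named within their class after their values were seen. The members, classes and rule were chosen with earlier results of these data known. Biotypes and sequences came from RefSeq tables and the GRCh37 genome. Alternatives were DESeq2 1.42.0, other scaling, filters and sets of libraries, a replicate block, thinned or halved counts, GC and exon length trends removed, each replicate left out, and, chosen after seeing the data, genes without exon overlap. The result of 1 gene is not reported here.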

Additional observations from a re-analysis of the deposited data

Results flagged for a closer look

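The following genes were called in opposite directions in the 2 genotypes, and the difference of their change between genotypes passed its own test (edgeR interaction term, 17 libraries). Values are log2 changes of IgG over input, with the change in siTDP43 minus that in WT given last. RPS19, a small-subunit ribosomal protein, was at 2.40 in siTDP43 and -1.10 in WT, a difference of 3.50. The immunoproteasome subunit PSMB10 was at 2.14 and -4.08 (6.22), the helicase DDX51 at 4.51 and -1.29 (5.80), the carrier SLC25A33 at 2.78 and -1.27 (4.05) and the chaperone HSPA2 at 3.04 and -2.63 (5.67). EEF2K had a fitted difference of -12.57, which is no bound, since it had no count in siTDP43 IgG.

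The 5 largest differences upward were all of this kind. The chloride transporter CLCN5 was at 3.39 in siTDP43 and -5.23 in WT (8.63), HEG1 at 4.45 and -3.90 (8.34), C9orf89 at 2.03 and -6.26 (8.29), UBTD1 at 3.09 and -4.89 (7.98), and TOMM40, the channel of protein import into mitochondria, at 4.0 and -3.96 (7.97). So were the 5 largest downward. The protease FURIN was at -3.11 and 3.92 (-7.03), AEBP2 at -4.84 and 2.19 (-7.03), the Wnt receptor FZD5 at -3.8 and 3.09 (-6.89), ZNF526 at -4.62 and 2.13 (-6.75) and the autophagy gene ATG14 at -4.61 and 2.10 (-6.71). In siTDP43 IgG these 5 genes had counts above 0 in 1 or 2 of the 3 libraries.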

How the results depend on the processing

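Counts of called genes stayed within 1.5 times of those reported under all alternatives, at 2365 to 3199 higher and 3730 to 6420 lower, and for differences between genotypes at 3507 to 4695 and 4886 to 6401. The median of all genes (-0.58) was -0.62 with the DESeq2 Wald test, -0.64 with DESeq2 size factors, -1.13 with total count scaling, -1.31 with no low-count filter, -0.29 with genes under a mean of 50 counts left out, -0.64 with 6 libraries in the fit, -1.12 with 17, -0.26 with libraries thinned to the smallest, -0.45 with counts halved, -0.48 with the GC trend removed and -0.72 to -0.58 without 1 replicate. Of 32 classes, 19 kept their side of this median in all 20 alternatives. The others, which lay on the other side in at least 1, were tRNA synthetases, histones, microRNA genes, snoRNAs, intergenic, antisense and nuclear long noncoding RNAs, lysosomal, ER, SR, heat shock, replication and glycolytic genes. Correlations across genes with GC, length and exon number were 0.297, -0.118 and -0.1003 under the stricter filter, and without 1 replicate 0.227 to 0.255, -0.107 to -0.094 and -0.089 to -0.071. Direction reversed for EEF1A1 (0.28) and TARDBP (0.43) with the GC trend removed, TARDBP (0.0094) with the length trend removed and UPF3B (-0.069) with total count scaling, and the cause was not tested. With total count scaling the differences between genotypes of EEF1A1 (-0.0063), RBBP6 (-0.28) and TARDBP (-0.031) reversed, and that of RBBP6 was -0.16 to 0.28 without 1 replicate. Correlations of deviations were 0.016, 0.002 and 0.020 for IgG with input of the same replicate number, and -0.020 to 0.004 for other pairs. With 3 libraries a group, spread between pull-downs could hide a shared source, so pairing was neither shown nor excluded. The replicate block gave 3102 higher and 5187 lower genes, a median of -0.60, and 4065 and 5609 differences between genotypes. Depth limits what absence shows: a gene under 1.03 CPM in IgG was below 3 counts.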
